A study of Homo sapiens with 12 samples.

Results

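A set of 43 genes of homologous recombination, the Fanconi anaemia pathway, mismatch and base excision repair and the checkpoint kinases was followed in human prostate cancer cells treated with inhibitors of the histone demethylases KDM1A and KDM7A. The members were chosen by gene symbol, with earlier results of these data known. All 43 were found among the 60675 genes counted in each library. RNA sequencing was carried out on 12 libraries in 6 groups of 2. LNCaP is an androgen-dependent line from a lymph node metastasis, and C4-2 (LNCaP:C42 in the labels) is a castration-resistant line derived from it. Every culture, controls included, received the synthetic androgen R1881 at 1 nM in hormone-depleted serum for 72 h. C4-2 cells had R1881 alone with the DMSO vehicle, R1881 with namoline at 50 µM (a KDM1A inhibitor), R1881 with TCE-5002 (a KDM7A-selective inhibitor), or R1881 with both inhibitors, called the combination. The libraries labelled LNCaP had R1881 alone or R1881 with the combination. The sources differ on the amount of TCE-5002, with 100 µM in the series description and less in the methods, and which of them applies is not known. The study describes the libraries of a group as biological replicates. The labels' treatment protocol describes siRNA transfection, which does not match the inhibitor treatments that the sample titles give and on which the groups rest.

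Homologous recombination repairs DNA breaks and broken replication forks by copying the sister chromatid, so it works in S and G2 phase. Broken ends are trimmed to single strands by the MRE11, RAD50 and NBN complex with RBBP8 and EXO1, and BRCA1, PALB2 and BRCA2 then load the strand exchange filament. Fanconi proteins act on interstrand crosslinks, where a core complex attaches ubiquitin to FANCD2 and FANCI. Many of these genes are transcribed mainly as cells enter S phase, and loss of BRCA2 or ATM is a known feature of some advanced prostate cancers.

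Depth ran from 14791602 to 20690819 counts per library, and the libraries of a group correlated at Pearson's r of 0.989 to 0.996 across genes. The libraries labelled LNCaP stood apart from C4-2 in most of their markers. Levels are given in CPM, counts scaled to a common library size with TMM factors. The 10 prostate epithelial markers summed to 353 to 870 CPM there against 2392 to 5392 CPM in C4-2, and EPCAM, an epithelial adhesion gene, was at 1.877 to 4.0003 CPM against 112 to 183 CPM. The androgen-responsive epithelial markers KLK3 and KLK2 overlapped between the lines. KLK3 was at 86.5 to 397 CPM against 42.6 to 485 CPM in C4-2, and KLK2 at 17.96 to 82.8 CPM against 48.2 to 320 CPM. The 10 mesenchymal markers summed to 776 to 958 CPM against 63.2 to 102 CPM, and VIM, at 609 to 732 CPM against 1.19 to 4.80 CPM, made up most of that sum. COL1A1 went the other way, at 2.54 to 4.88 CPM against 36.5 to 85.5 CPM, and FN1 overlapped. Of the neuroendocrine markers, NCAM1 was at 109 to 112 CPM against 0 to 0.325 CPM, and CHGB was at 0 counts in every C4-2 library. Since most of these markers go against a plain LNCaP identity, the libraries are named by their label only. The count header of the LNCaP-labelled combination replicate 1 names namoline without TCE-5002, so the LNCaP-labelled calls and line differences are also given without it. In bulk RNA, fewer cells in a phase and less RNA per cell cannot be told apart.

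Promoter windows are shown for RAD54L and EXO1, which had the largest rises with namoline among the members, and for PIF1, which had the largest fall with the combination. The sequences are from RefSeq (GRCh38.p14), run 5′ to 3′ on the gene's strand, and cover 250 bases before and 30 bases after the start site. Capitals mark matches to 3 motifs searched on both strands, which were the E2F site, spelled as TTGGCGC, with variants spelled as TTCCCGC, further as TTGCCGC, and last as TTCGCGC, the CHR element spelled TTTGAA or else as TTTAAA, and the CCAAT box, which reads ATTGG on the other strand.
RAD54L, chr1:46247438-46247717, + strand: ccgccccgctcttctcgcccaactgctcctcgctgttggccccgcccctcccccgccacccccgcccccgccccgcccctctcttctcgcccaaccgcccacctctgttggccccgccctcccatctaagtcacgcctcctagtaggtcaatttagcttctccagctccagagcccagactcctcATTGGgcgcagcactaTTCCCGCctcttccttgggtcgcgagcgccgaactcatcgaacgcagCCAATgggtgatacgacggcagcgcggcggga
EXO1, chr1:241847954-241848233, + strand: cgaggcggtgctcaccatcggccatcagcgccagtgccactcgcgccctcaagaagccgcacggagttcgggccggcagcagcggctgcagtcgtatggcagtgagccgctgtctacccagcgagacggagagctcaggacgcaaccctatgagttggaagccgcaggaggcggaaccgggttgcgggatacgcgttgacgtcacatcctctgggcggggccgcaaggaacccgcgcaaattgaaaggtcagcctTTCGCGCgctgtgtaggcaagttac
PIF1, chr15:64825618-64825897, - strand: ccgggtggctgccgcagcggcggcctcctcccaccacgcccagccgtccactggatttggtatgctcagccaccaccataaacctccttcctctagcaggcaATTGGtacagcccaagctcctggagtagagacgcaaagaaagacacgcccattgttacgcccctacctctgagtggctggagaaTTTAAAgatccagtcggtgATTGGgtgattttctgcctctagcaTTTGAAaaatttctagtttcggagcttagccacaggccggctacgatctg
The RAD54L window held the E2F word TTCCCGC at position -49 from the start and CCAAT at positions -65 and -2. The EXO1 window held the E2F word TTCGCGC at position 5. The PIF1 window held no E2F word, CHR words at positions -64 and -20 and CCAAT at positions -148 and -45. A window was listed for 40 of the 43 members, all but FANCI, NBN and RMI2.

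Namoline had the widest effect on the set in C4-2 cells. Of the 43 members, 20 rose and 1 fell, where a rise or fall means an adjusted p-value (edgeR quasi-likelihood test, Benjamini-Hochberg) under 0.05 with at least a 2-fold change against R1881 alone. Over all genes tested, 12.1% were called in this comparison, 5.17% as higher and 6.88% as lower. The members' median log2 fold change was 0.94, against 0.00 over all genes. TCE-5002 alone gave 5 rises and 1 fall (11.8% of all genes called, 5.04% higher and 6.8% lower) with a median of 0.33, and the combination gave 3 rises and 3 falls (21.7% of all genes called, 8.87% higher and 12.8% lower) with a median of 0.18, so the members' share of calls with the combination was below that of all genes. Under the adjusted p-value alone, 28 members were higher and 2 lower with namoline, where 35.0% of all genes passed (18.7% higher, 16.3% lower). With TCE-5002 it was 16 and 3 (36.5% of all genes, 19.9% higher and 16.7% lower), and with the combination 13 and 9 (50.3%, 24.8% higher and 25.6% lower). The 3 comparisons share the R1881 libraries. Summed over the members, the level was 1464 to 1598 CPM with R1881 alone, 2409 to 2571 CPM with namoline, 1659 to 1865 CPM with TCE-5002 and 1766 to 1858 CPM with the combination.

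**Figure D1:**
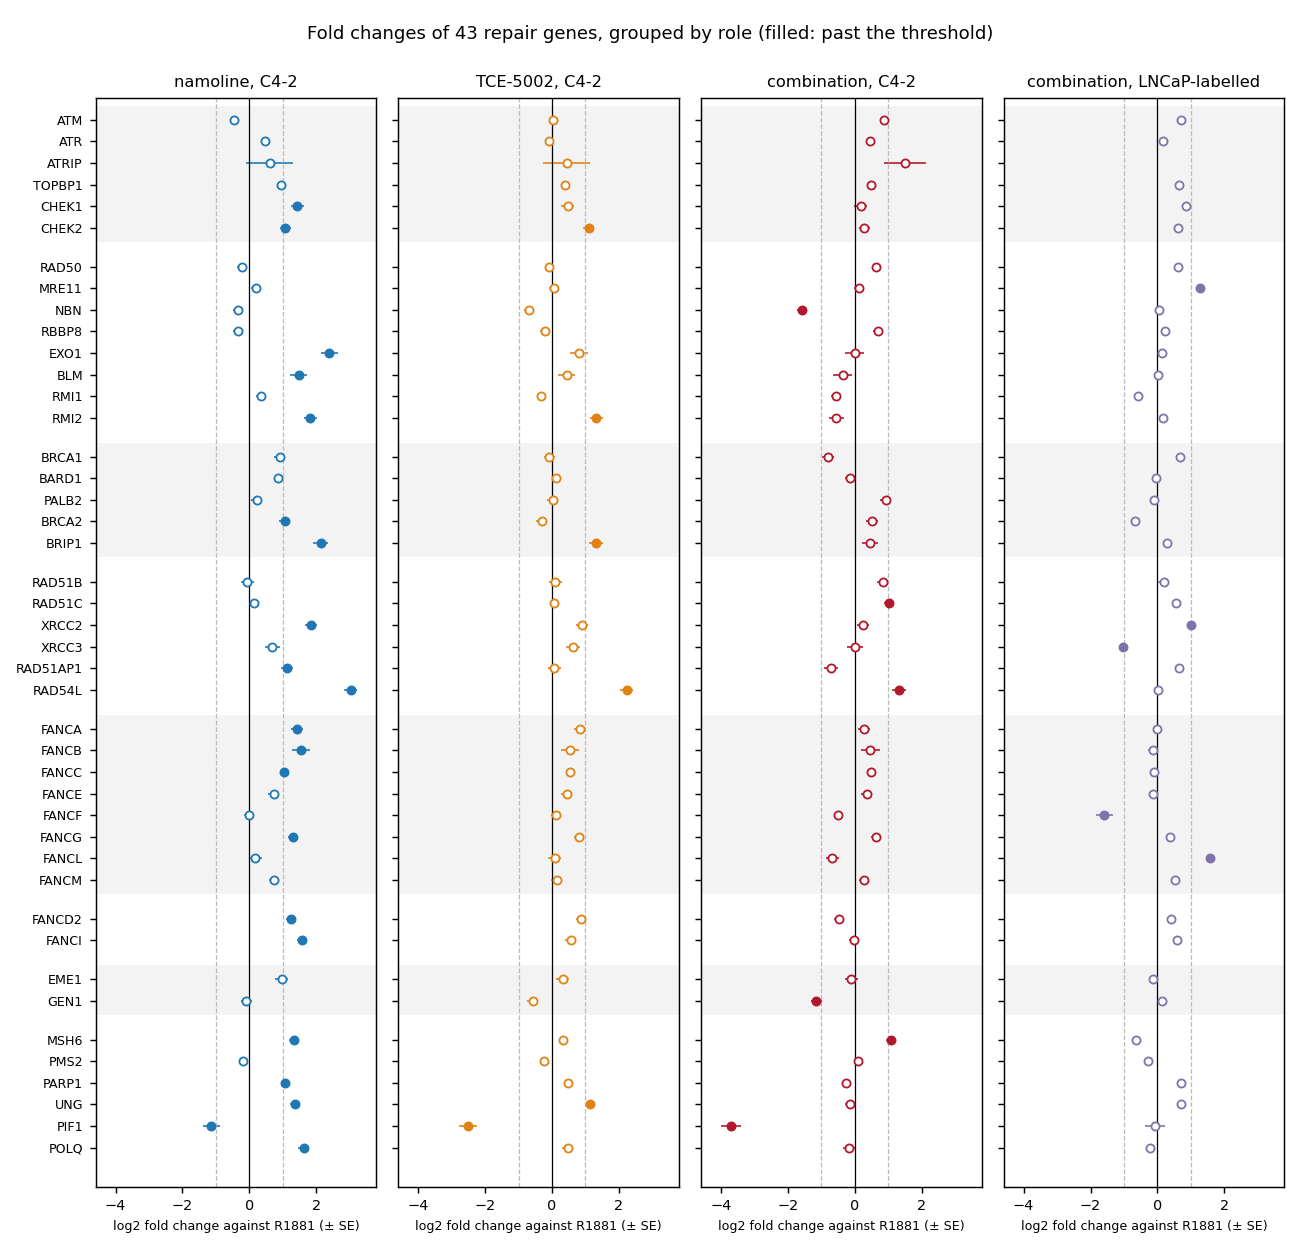
Log2 fold change against R1881 alone (horizontal axis) of each repair gene (rows, in the order of their roles) in 4 panels, of which 3 show the C4-2 treatments and 1 the LNCaP-labelled cells with the combination. Points are edgeR estimates, bars are ± 1 SE, filled points passed the threshold and dashed lines mark a 2-fold change. With namoline 20 members rose, with PIF1 alone falling, whereas the combination gave 3 rises and 3 falls.

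Ranked by mean level over the C4-2 groups, namoline was the highest group for 30 of the 43 members (69.8%, against 21.7% of all genes tested). The combination was highest for 8 (18.6%, against 34.2% of all genes), R1881 alone for 3 (6.98%, against 22.5%) and TCE-5002 for 2 (4.65%, against 21.6%). R1881 alone was the lowest group for 20 members (46.5%, against 22.1% of all genes), and the combination for 16 (37.2%, near the 35.5% of all genes). Both namoline libraries lay above both R1881 libraries for 33 members, where 37.2% of all genes did so, and below them for 5, where 35.4% did. This ranking was added after the values had been seen. Corrected for gene length, in TPM, which divides counts by exon length, the members' median level was 11.99 TPM with R1881 alone, 19.7 TPM with namoline, 14.4 TPM with TCE-5002 and 10.4 TPM with the combination. The middle member can be another gene in each group, so these levels are not a change of single members. With the combination the median log2 fold change was 0.18, with 25 members positive and 18 negative.

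The members spanned a wide range of levels before any inhibitor. In C4-2 with R1881 alone, PARP1, the enzyme that marks DNA breaks with ADP-ribose, led at 137 ± 6.17 TPM (SD, n = 2). RAD50 followed at 64.8 ± 12.2 TPM, and PMS2 (52.5 ± 1.88 TPM) and NBN (50.5 ± 5.67 TPM) did not differ from each other beyond the spread. At the bottom, BLM (2.50 ± 0.330 TPM), BRIP1 (2.16 ± 0.229 TPM) and FANCB (2.02 ± 0.575 TPM) overlapped within their spread. ATRIP, the partner of ATR, had only 0 to 20 counts in any library. Its library with 0 counts, LNCaP-labelled R1881 replicate 2, allows up to 3 counts, or 0.145 CPM before scaling, for counting error only. ATRIP was not tested in the LNCaP-labelled comparison, and its C4-2 level was too low to read, with 1.51 ± 0.63 (adjusted p = 0.0596) for the combination. That value passed the threshold under 6 of the alternatives, with the replicate block (1.55, adjusted p = 0.0493), the likelihood ratio test, no filter, only the groups compared and both GC fits.

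Of the 6 checkpoint genes, 2 rose with namoline, 1 with TCE-5002 and none with the combination. CHEK1 (chr11:125625136-125676255, + strand), the kinase that holds the cycle when replication stalls, stood at 20.4 and 14.5 CPM with R1881 alone, 43.8 and 52.5 with namoline, 28.3 and 20.4 with TCE-5002 and 22.5 and 17.95 with the combination. The namoline libraries were the highest, and those of the combination overlapped R1881 alone. Log2 fold changes (± SE) of CHEK1 were 1.44 ± 0.19 (adjusted p = 5.65e-05) with namoline, 0.47 ± 0.19 (adjusted p = 0.0707) with TCE-5002 and 0.18 ± 0.20 (adjusted p = 0.47) with the combination. CHEK2, the kinase downstream of ATM, rose with namoline by 1.08 ± 0.16 (adjusted p = 0.000173) and with TCE-5002 by 1.10 ± 0.16 (adjusted p = 0.000155), and was at 0.28 with the combination. Without R1881 replicate 2 its changes with the single inhibitors were 0.91 and 0.93, under 2-fold. ATM (chr11:108222484-108369102, + strand), the kinase that signals DNA breaks, took the opposite course, at 121 and 118 CPM with R1881 alone, 91.7 and 86.6 with namoline, 113 and 129.8 with TCE-5002 and 225 and 219.7 with the combination. Both namoline libraries were below, and both combination libraries above, all others in C4-2. ATM changed by -0.44 ± 0.11 (adjusted p = 0.00658) with namoline and 0.86 ± 0.11 (adjusted p = 2.03e-05) with the combination, both under 2-fold, and by 0.02 with TCE-5002. ATR (chr3:142449235-142578826, - strand), the kinase for stalled forks, was at 64.2 and 64.4 CPM with R1881 alone, 91.1 and 89.1 with namoline, 66.6 and 54.7 with TCE-5002 and 93.2 and 84.9 with the combination. Its changes were 0.47 with namoline and 0.45 with the combination (adjusted p = 0.00703 and 0.0066) and -0.08 with TCE-5002 (adjusted p = 0.624). TOPBP1, which activates ATR, was at 0.94, 0.39 and 0.49 with namoline, TCE-5002 and the combination.

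Among the 8 genes of end sensing, resection and junction dissolution, EXO1, BLM and RMI2 rose with namoline, and no gene of the end-sensing complex passed 2-fold with it. EXO1 (chr1:241847967-241895148, + strand), whose promoter window is printed above, stood at 5.57 and 4.22 CPM with R1881 alone, 23.9 and 28.9 with namoline, 10.6 and 6.70 with TCE-5002 and 6.30 and 3.69 with the combination. Only the namoline libraries stood far above the rest, and the combination overlapped R1881 alone. The log2 fold changes of EXO1 were 2.40 ± 0.25 (adjusted p = 7.18e-06) with namoline, 0.80 ± 0.26 (adjusted p = 0.0278) with TCE-5002 and 0.00 ± 0.28 (adjusted p = 0.995) with the combination. RMI2 (chr16:11249619-11351762, + strand), a subunit of the BLM complex, was at 3.28 and 3.44 CPM with R1881 alone, 11.7 and 12.3 with namoline, 9.12 and 7.77 with TCE-5002 and 2.33 and 2.31 with the combination. No group overlapped another, and the combination libraries were the lowest. RMI2 rose by 1.82 ± 0.19 (adjusted p = 6.38e-06) with namoline and 1.33 ± 0.19 (adjusted p = 0.000131) with TCE-5002, and was at -0.55 ± 0.23 (adjusted p = 0.0526) with the combination. BLM itself rose by 1.48 ± 0.26 (adjusted p = 0.000492) with namoline, while its partner RMI1 was at 0.35 ± 0.14 (adjusted p = 0.0724). NBN (chr8:89933336-90003228, - strand), which brings ATM to broken ends, followed a falling course, at 88.7 and 78.9 CPM with R1881 alone, 69.04 and 65.4 with namoline, 61.01 and 43.4 with TCE-5002 and 30.1 and 27.4 with the combination. The groups did not overlap, and the combination libraries held the lowest values. NBN was at -0.33 ± 0.15 (adjusted p = 0.0902) with namoline, -0.68 ± 0.15 (adjusted p = 0.00235) with TCE-5002 and -1.57 ± 0.15 (adjusted p = 1.66e-06) with the combination, the last a fall past 2-fold. Its complex partners RAD50 and MRE11 were at -0.23 and 0.19 with namoline and at 0.64 and 0.14 with the combination, so within the complex only NBN passed 2-fold in C4-2. RBBP8, which starts resection, was at -0.34 with namoline (adjusted p = 0.069) and 0.69 with the combination (adjusted p = 0.000684).

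BRCA1 was lower and BRCA2 higher with the combination, both under 2-fold and both dependent on single libraries. BRCA1 (chr17:43044295-43170245, - strand), the scaffold that promotes resection and filament loading, stood at 39.3 and 32.1 CPM with R1881 alone, 62.7 and 73.2 with namoline, 36.3 and 31.5 with TCE-5002 and 24.8 and 17.1 with the combination. The namoline libraries were above and the combination libraries below all others, and TCE-5002 overlapped R1881 alone. BRCA1 was at 0.91 ± 0.17 (adjusted p = 0.000798) with namoline, -0.08 ± 0.17 (adjusted p = 0.757) with TCE-5002 and -0.79 ± 0.17 (adjusted p = 0.0017) with the combination, none of which reached 2-fold. The namoline value passed the threshold with a correction for GC content (1.004) and without R1881 replicate 1 (1.08). The combination value was -1.09, past the threshold, without combination replicate 1 and -0.54 (adjusted p = 0.0529) without combination replicate 2. BRCA2 (chr13:32315474-32400266, + strand), which loads the filament, stood at 45.4 and 33.8 CPM with R1881 alone, 74.4 and 92.8 with namoline, 31.5 and 32.5 with TCE-5002 and 65.6 and 50.04 with the combination. Here the combination libraries lay above those with R1881 alone and the TCE-5002 libraries below them. BRCA2 rose by 1.06 ± 0.17 (adjusted p = 0.000227) with namoline, and was at -0.31 ± 0.17 (adjusted p = 0.165) with TCE-5002 and 0.52 ± 0.17 (adjusted p = 0.018) with the combination. Its combination value was 0.31 without R1881 replicate 2 (adjusted p = 0.224) and also 0.31 without combination replicate 1 (adjusted p = 0.244). The BRCA2 change with namoline was 0.86 without R1881 replicate 2 and 0.88 without namoline replicate 2. BRIP1 (chr17:61681266-61863521, - strand), a helicase that binds BRCA1, had values of 4.92 and 4.42 CPM with R1881 alone, 19.8 and 21.8 with namoline, 10.8 and 12.6 with TCE-5002 and 8.17 and 4.88 with the combination. Both single inhibitors were above R1881 alone, and the combination overlapped it. BRIP1 rose by 2.13 ± 0.22 (adjusted p = 5.04e-06) with namoline and 1.32 ± 0.22 (adjusted p = 0.000399) with TCE-5002, and was at 0.46 ± 0.23 (adjusted p = 0.114) with the combination. BARD1, the partner of BRCA1, was at 0.87, 0.12 and -0.15 with namoline, TCE-5002 and the combination, and PALB2, which bridges BRCA1 and BRCA2, at 0.22, 0.02 and 0.92.

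**Figure D2:**
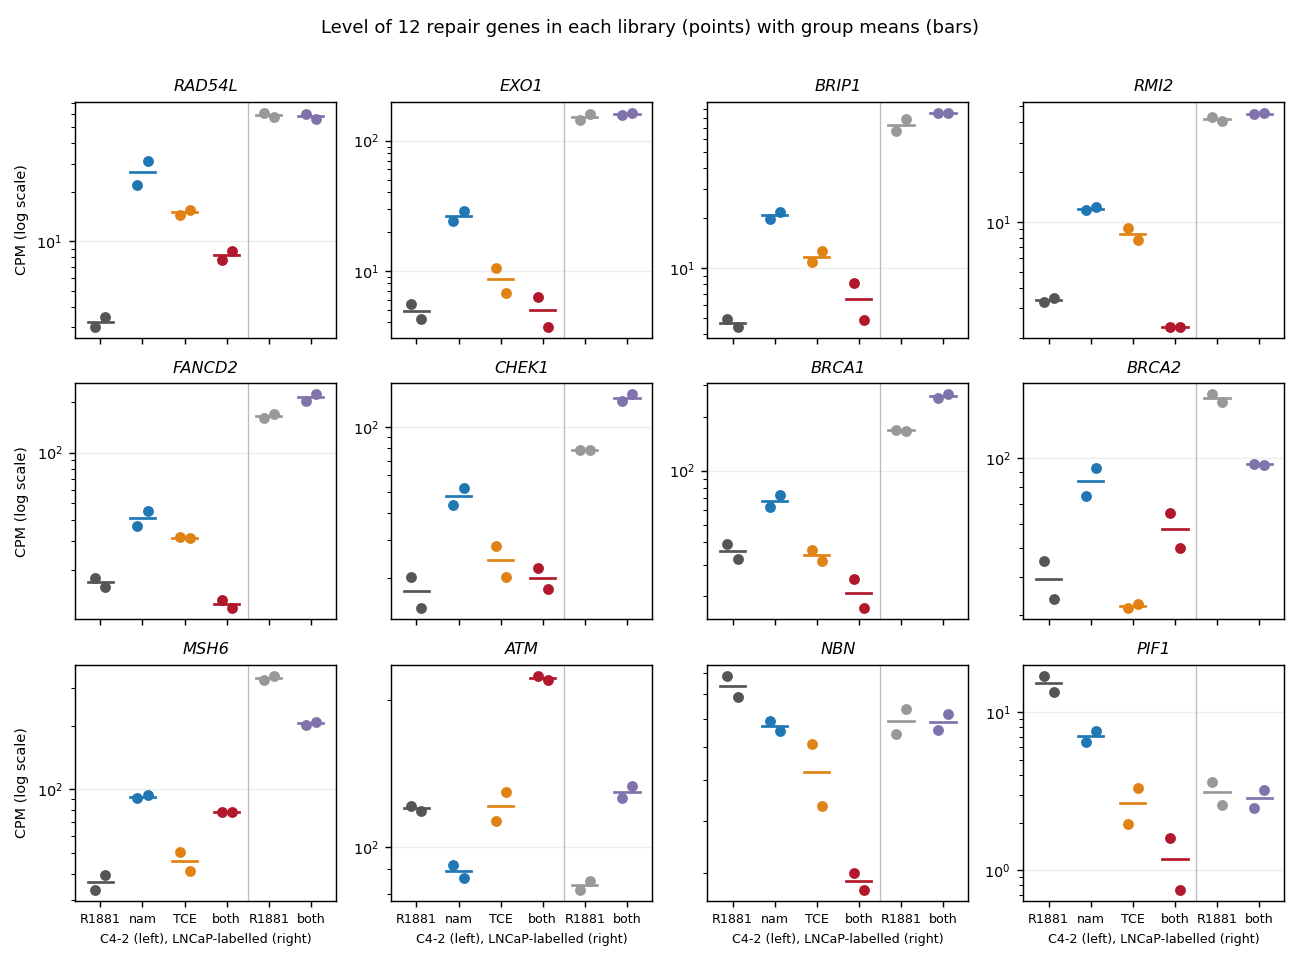
Level of 12 repair genes in each of the 12 libraries, in CPM on a log axis scaled separately per gene. Points are libraries, bars are group means, nam stands for namoline, TCE for TCE-5002 and both for the combination. RAD54L ran from 2.996 CPM with R1881 alone to 30.9 CPM with namoline in C4-2, and PIF1 from 17.0 CPM down to 0.751 CPM with the combination.

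RAD54L had the largest rise past the threshold of any member with each of the C4-2 treatments, except in those fits of the combination where ATRIP passed. RAD54L (chr1:46247688-46278473, + strand), a motor protein that drives strand exchange, stood at 2.996 and 3.44 CPM with R1881 alone, 22.2 and 30.9 with namoline, 14.6 and 15.6 with TCE-5002 and 7.72 and 8.76 with the combination. The groups did not overlap, and every treated library exceeded both R1881 libraries. RAD54L rose by 3.03 ± 0.20 (adjusted p = 8.94e-08) with namoline, 2.23 ± 0.20 (adjusted p = 2.41e-06) with TCE-5002 and 1.34 ± 0.21 (adjusted p = 0.000134) with the combination. Among the filament paralogs, XRCC2 (chr7:152644779-152676165, - strand) stood at 17.04 and 12.5 CPM with R1881 alone, 48.1 and 60.4 with namoline, 28.02 and 27.6 with TCE-5002 and 20.4 and 15.6 with the combination. It rose by 1.85 ± 0.18 (adjusted p = 2.86e-06) with namoline, and was at 0.90 ± 0.18 (adjusted p = 0.00133) with TCE-5002 and 0.25 ± 0.18 (adjusted p = 0.262) with the combination. RAD51C (chr17:58692573-58735611, + strand) differed in that only the combination raised it, from 45.8 and 40.1 CPM with R1881 alone to 87.5 and 91.1 CPM, with 49.5 and 46.9 CPM for namoline and 52.6 and 37.8 CPM for TCE-5002. The change of RAD51C with the combination was 1.03 ± 0.15 (adjusted p = 4.80e-05), or 0.93 without R1881 replicate 2. RAD51B was close behind at 0.85 ± 0.19 (adjusted p = 0.00181), under 2-fold. XRCC3 (chr14:103697609-103715504, - strand) was at 17.3 and 18.5 CPM with R1881 alone, 26.4 and 31.9 with namoline, 19.1 and 36.3 with TCE-5002 and 18.2 and 18.5 with the combination, and its TCE-5002 libraries differed from each other by more than those of any other group. RAD51AP1, which stimulates strand exchange, rose by 1.12 ± 0.18 (adjusted p = 0.000292) with namoline and was at -0.71 ± 0.20 (adjusted p = 0.00779) with the combination.

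Of the 8 Fanconi core genes 4 rose with namoline, namely FANCA (1.43), FANCB (1.54), FANCC (1.04) and FANCG (1.32), and none passed 2-fold with TCE-5002 or the combination in C4-2. FANCC was at 0.97 without R1881 replicate 2. FANCE and FANCM were at 0.73 and 0.74 with namoline, and FANCF and FANCL at -0.01 and 0.18. The core thus split into 6 genes higher under the adjusted p-value alone and the other two, FANCF and FANCL, which did not pass. The substrates of the core both rose with namoline. FANCD2 (chr3:10026414-10101930, + strand) stood at 17.98 and 15.98 CPM with R1881 alone, 36.7 and 45.02 with namoline, 31.5 and 31.01 with TCE-5002 and 13.3 and 11.9 with the combination. Both single inhibitors were above R1881 alone and the combination below it, with no overlap. FANCD2 was at 1.25 ± 0.14 (adjusted p = 1.62e-05) with namoline, 0.88 ± 0.14 (adjusted p = 0.000345) with TCE-5002 and -0.46 ± 0.15 (adjusted p = 0.0209) with the combination. FANCI was at 1.58, 0.55 and -0.01 with namoline, TCE-5002 and the combination. Of the enzymes that cut joined molecules, EME1 was at 0.97 ± 0.19 (adjusted p = 0.00135) with namoline, and GEN1 (chr2:17753858-17788941, + strand) was at 30.8 and 23.8 CPM with R1881 alone, 25.4 and 26.97 with namoline, 18.7 and 18.2 with TCE-5002 and 14.2 and 10.9 with the combination. Namoline lay within the range of R1881 alone for GEN1, and the other treated groups were below it. GEN1 fell with the combination, at -1.15 ± 0.17 (adjusted p = 6.85e-05), which became -0.95 without R1881 replicate 1 and -0.96 without combination replicate 2.

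Among the 6 genes of mismatch, base excision and alternative repair, 4 rose with namoline and PIF1 fell. PARP1 (chr1:226360691-226408079, - strand) stood at 267 and 262 CPM with R1881 alone, 542 and 586 with namoline, 389 and 343 with TCE-5002 and 235 and 218 with the combination. The namoline libraries were the highest and the combination libraries the lowest. PARP1 was at 1.08 ± 0.11 (adjusted p = 5.60e-06) with namoline, 0.47 ± 0.11 (adjusted p = 0.00436) with TCE-5002 and -0.25 ± 0.11 (adjusted p = 0.0759) with the combination. MSH6 (chr2:47695530-47810101, + strand), which recognises mismatched bases, stood at 33.5 and 39.5 CPM with R1881 alone, 90.7 and 93.6 with namoline, 50.6 and 40.9 with TCE-5002 and 78.01 and 78.3 with the combination. Namoline and combination libraries both exceeded the others. MSH6 rose by 1.32 ± 0.13 (adjusted p = 3.13e-06) with namoline and by 1.08 ± 0.13 (adjusted p = 1.12e-05) with the combination (0.96 without R1881 replicate 1), and was at 0.33 ± 0.13 (adjusted p = 0.0589) with TCE-5002. PMS2, which acts after MSH6, was at -0.18, -0.25 and 0.09 with namoline, TCE-5002 and the combination. UNG, which removes uracil from DNA, rose with namoline (1.36) and TCE-5002 (1.13) and was at -0.14 with the combination, and its TCE-5002 change was 0.94 without TCE-5002 replicate 1. POLQ, the polymerase of alternative end joining, rose with namoline by 1.62 ± 0.17 (adjusted p = 8.28e-06). PIF1 (chr15:64815632-64825668, - strand), a helicase that unwinds folded DNA at forks and telomeres, stood at 16.99 and 13.3 CPM with R1881 alone, 6.45 and 7.55 with namoline, 1.97 and 3.32 with TCE-5002 and 1.59 and 0.751 with the combination. The groups did not overlap and each treatment was below R1881 alone, with the combination the lowest. PIF1 fell with every treatment, at -1.13 ± 0.25 (adjusted p = 0.0025) for namoline, -2.52 ± 0.27 (adjusted p = 1.12e-05) for TCE-5002 and -3.70 ± 0.31 (adjusted p = 5.10e-07) for the combination, and the namoline value became -0.93 without R1881 replicate 1.

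Adding TCE-5002 to namoline went with lower levels for 21 of the 43 members. In the comparison of the combination with namoline alone, 21 members were lower and 2 higher (27.5% of all genes called, 14.7% lower), with a median log2 difference of -0.90. Under the adjusted p-value alone 31 members were lower and 6 higher, where 55.9% of all genes passed, 29.0% as lower. The largest were PIF1 (-2.56), EXO1 (-2.40), RMI2 (-2.38), BLM (-1.84), RAD51AP1 (-1.82) and POLQ (-1.79), while ATM (1.31) and RBBP8 (1.02) were higher. The RBBP8 value was 0.93, under 2-fold, with the GC correction and also without namoline replicate 2. Against TCE-5002 alone the combination lowered 4 members, RMI2 (-1.89), FANCD2 (-1.34), UNG (-1.27) and PIF1 (-1.17), and raised none (26.1% of all genes called, 14.3% lower), and 21 were lower and 10 higher under the adjusted p-value alone (55.1% of all genes, 28.7% lower). PIF1 was at -0.76 in this comparison without TCE-5002 replicate 2 and at -0.74 without combination replicate 2. The count became 9 without TCE-5002 replicate 1, with 4 of them higher, and also 9, all lower, without combination replicate 1.

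The effect of both inhibitors was tested against the sum of their single effects as an interaction on the log2 scale, where 0 means that the single effects add up. The interaction was negative past the threshold for 22 members and positive for 2, where 35.3% of all genes were called and 18.6% were negative. Under the adjusted p-value alone 30 were negative and 7 positive (53.5% of all genes, 27.9% negative and 25.6% positive). The members' median was -1.11 and that of all genes -0.01. RAD54L had the lowest value at -3.93 ± 0.27 (adjusted p = 3.82e-08), as its rises of 3.03 and 2.23 were met by 1.34 for the combination. RMI2 was at -3.71 ± 0.28 (adjusted p = 8.96e-08), EXO1 at -3.20 ± 0.37 (adjusted p = 4.69e-06), BRIP1 at -2.99 ± 0.31 (adjusted p = 1.61e-06) and FANCD2 at -2.58 ± 0.21 (adjusted p = 1.58e-07). BRCA1 was at -1.63 ± 0.24 (adjusted p = 5.48e-05), CHEK1 at -1.73 ± 0.27 (adjusted p = 9.00e-05) and PARP1 at -1.79 ± 0.16 (adjusted p = 3.69e-07). The positive members were ATM at 1.29 ± 0.16 (adjusted p = 8.20e-06) and RBBP8 at 1.25 ± 0.19 (adjusted p = 7.22e-05). PIF1, at -0.04 ± 0.40 (adjusted p = 0.943), and BRCA2, at -0.23 ± 0.24 (adjusted p = 0.439), did not pass the test. XRCC3, among the 22, was at -1.31, but at -0.88 with the GC correction and -0.79 without TCE-5002 replicate 2.

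**Figure D3:**
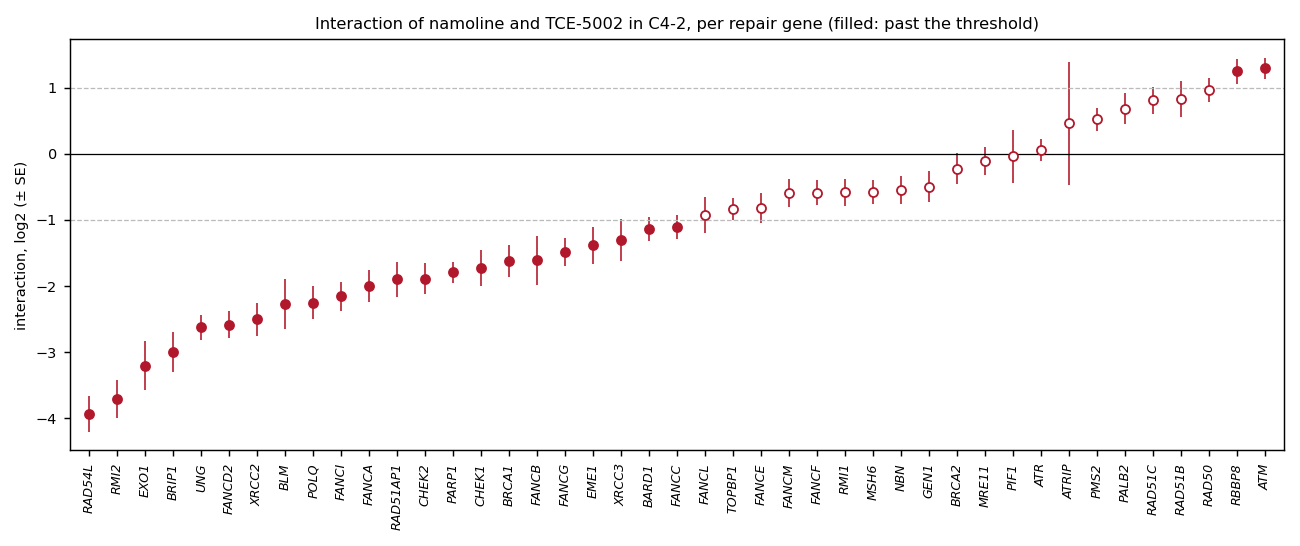
Interaction of namoline and TCE-5002 in C4-2 (vertical axis, log2) for each repair gene, ordered by value, with ± 1 SE bars, filled points past the threshold and dashed lines at a 2-fold departure. A total of 22 members lay past the lower line from RAD54L (-3.93) upward, and RBBP8 and ATM lay past the upper one.

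Cell cycle markers moved in the same comparisons. All 15 S phase markers rose with namoline (median 1.99), 8 with TCE-5002 (1.02) and 2 with the combination (0.21), and their summed level was 346 to 356 CPM with R1881 alone, 1272 to 1630 CPM with namoline, 694 to 729 CPM with TCE-5002 and 498 to 551 CPM with the combination. The interaction was negative for all 15 of them, with a median of -2.96. The G2/M markers went another way, with 1 rise and 2 falls of 15 for namoline (median 0.08), 12 falls for TCE-5002 (-1.34) and 14 falls for the combination (-1.73). The G2/M sums were 1021 to 1294 CPM with R1881 alone, 1070 to 1395 CPM with namoline, 464 to 507 CPM with TCE-5002 and 304 to 402 CPM with the combination. Of 15 p53 target genes, 5 rose and 1 fell with namoline, 1 rose and 1 fell with TCE-5002, and 13 rose with the combination (median 2.13), with sums of 937 to 1045 CPM with R1881 alone and 4308 to 4675 CPM with the combination. No marker of these lists was at 0. Their part in the repair genes' values was not tested.

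**Figure D4:**
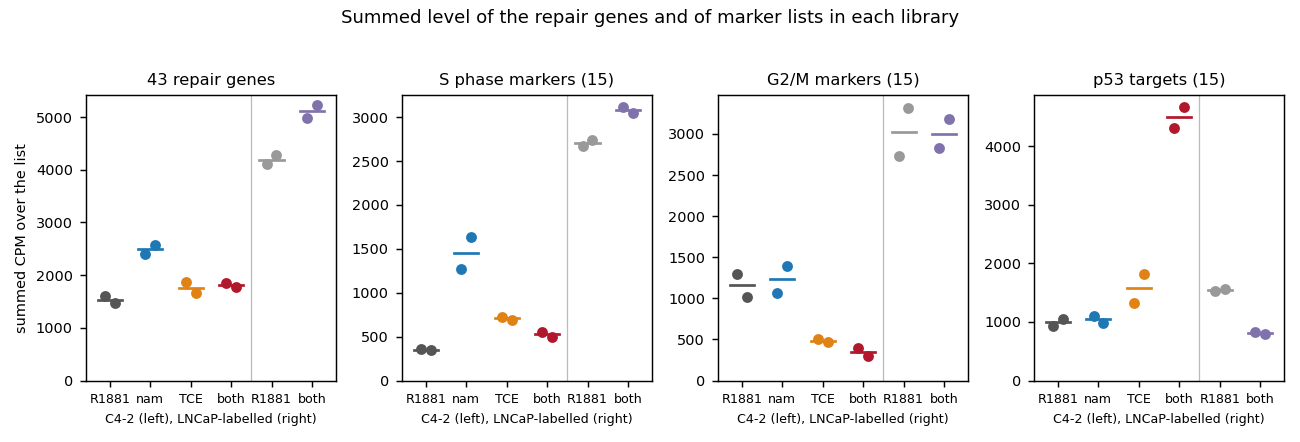
Summed CPM in each library for the 43 repair genes and for 15 S phase, 15 G2/M and 15 p53 target markers, with group means as bars, on axes that start at 0. The repair genes and the S phase markers were highest with namoline among the C4-2 groups, and the p53 targets reached 4308 to 4675 CPM with the combination.

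The motif search used windows of 250 bases before and 50 bases after the start, of which the printed sequences show the part up to base 30. An E2F word was found in 23 of the 40 members with a window (57.5%), against 13.0% of all 27305 genes with one. The CHR words were in 17.5% of the members' windows against 24.4% of all, and CCAAT in 47.5% against 35.7%. Those shares of all windows include genes that were not tested, whereas every member was tested in C4-2. Among genes tested in C4-2 with a window, 2350 held an E2F word and 9409 did not. For the CHR words it was 1847 and 9912, and for CCAAT 4320 and 7439. Against these genes the members' E2F excess was smaller, and their CHR share was not lower. E2F words and CCAAT on the other strand can share their letters TTGG. Members with an E2F word had a median log2 fold change of 1.12 with namoline, 14 of 23 rising, and those without had 0.35, with 4 of 17 rising. For the interaction the medians were -1.49 with the word, 16 of 23 negative past the threshold, and -0.04 without it, 4 of 17. With the combination the medians were 0.00 with the word and 0.47 without. Among all genes tested with a window, the medians with namoline were 0.07 with the word and 0.02 without, and 6.43% and 5.37% rose, and for the interaction the medians were -0.13 and -0.06, with 20.9% and 20.0% negative past the threshold. RAD54L and EXO1 belong to the group with the word and PIF1 to the group without. This split was made after the fold changes were known and is a description with no test, and a match of letters does not show a bound site.

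In the libraries labelled LNCaP the combination called 5 of 42 members tested (18.7% of all genes called, 7.44% higher and 11.3% lower), 3 as higher and 2 as lower, with a median of 0.16. None of these 5 passed 2-fold with the combination in C4-2. FANCL (chr2:58159243-58241372, - strand), the ubiquitin ligase of the Fanconi core, went from 11.02 and 12.4 CPM with R1881 alone to 32.3 and 35.01 CPM, where C4-2 had 7.02 and 6.95 CPM and 4.77 and 4.19 CPM. FANCL rose by 1.58 ± 0.14 (adjusted p = 2.88e-11) in the LNCaP-labelled cells and was at -0.66 ± 0.20 (adjusted p = 0.012) in C4-2. MRE11 (chr11:94415578-94493908, - strand), the nuclease of the end-sensing complex, stood at 79.1 and 83.01 CPM with R1881 alone and 183 and 193 CPM with the combination in the LNCaP-labelled cells, and at 40.8 and 35.7 CPM and 45.2 and 40.5 CPM in C4-2. MRE11 rose by 1.27 ± 0.10 (adjusted p = 5.03e-12). XRCC2 stood at 65.1 and 61.8 CPM with R1881 alone and 113 and 133 CPM with the combination and rose by 1.02 ± 0.11 (adjusted p = 1.36e-09). FANCF (chr11:22622519-22626787, - strand), a core subunit, was at 8.33 and 6.37 CPM with R1881 alone and 2.48 and 2.23 CPM with the combination and fell, with -1.58 ± 0.25 (adjusted p = 2.29e-06). XRCC3 was at 58.4 and 60.2 CPM with R1881 alone and 30.04 and 26.4 CPM with the combination and fell, with -1.02 ± 0.12 (adjusted p = 9.93e-09). The libraries of the groups did not overlap for any of the 5, but these were picked by passing the threshold, so this adds no evidence. Among all members tested, both combination libraries lay above both R1881 libraries for 20 and below them for 11. The libraries overlapped for the other 11 members. Of all genes tested here, 77.8% showed no overlap in either direction.

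Without combination replicate 1, the library whose header lacks TCE-5002, these changes were 1.63 for FANCL, 1.31 for MRE11, 1.13 for XRCC2, -1.66 for FANCF and -1.11 for XRCC3. With a correction for the GC content of each gene's transcripts, XRCC2 (0.74), MRE11 (0.99) and XRCC3 (-0.70) no longer reached 2-fold. Under the adjusted p-value alone 18 members were higher and 6 lower (56.2% of all genes passed, 28.0% higher and 28.2% lower), among them BRCA1 (0.69), PARP1 (0.69), ATM (0.69) and CHEK1 (0.86) as higher and BRCA2 (-0.68) and MSH6 (-0.65) as lower. Without combination replicate 1, BRCA1 was at 0.72, PARP1 at 0.69, ATM at 0.73, CHEK1 at 0.91, BRCA2 at -0.69 and MSH6 at -0.64. In these cells 1 of 15 S phase markers rose and no G2/M marker passed, while 5 p53 targets fell. Without that library 1 S phase marker rose and 1 fell, no G2/M marker passed and 6 p53 targets fell.

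The difference between the lines in the response to the combination was tested in one fit of 8 libraries, as the C4-2 change minus the LNCaP-labelled change. It passed for 11 members (25.6%, near the 25.3% of all genes called), with 4 positive and 7 negative, and for 24 under the adjusted p-value alone (47.6% of all genes), 10 positive and 14 negative (21.7% and 25.9% of all genes). BRCA1 was at -1.54 ± 0.17 (adjusted p = 1.11e-07), from -0.79 in C4-2 and 0.69 in the LNCaP-labelled cells, where it stood at 169 and 166 CPM with R1881 alone and 253 and 267 CPM with the combination. BRCA2 was at 1.14 ± 0.17 (adjusted p = 7.05e-06), with the signs turned round (0.94 without C4-2 R1881 replicate 2 and 0.92 without C4-2 combination replicate 1), and stood at 163 and 153 CPM with R1881 alone and 95.6 and 94.5 CPM with the combination in the LNCaP-labelled cells. MSH6 was at 1.68 ± 0.13 (adjusted p = 1.98e-10), with 327 and 345 CPM with R1881 alone and 202 and 208 CPM with the combination in the LNCaP-labelled cells. PIF1 had the largest difference at -3.69 ± 0.40 (adjusted p = 6.72e-08), with 3.63 and 2.59 CPM with R1881 alone and 2.48 and 3.20 CPM with the combination in the LNCaP-labelled cells, where its change was -0.06 ± 0.29 (adjusted p = 0.866), or 0.09 without combination replicate 1. RAD54L was at 1.26 ± 0.20 (adjusted p = 9.82e-06), with 61.3 and 57.9 CPM with R1881 alone and 60.4 and 56.1 CPM with the combination in the LNCaP-labelled cells and a change there of 0.02. Without the LNCaP-labelled combination replicate 1, BRCA1 was at -1.59, BRCA2 at 1.13, MSH6 at 1.64, PIF1 at -3.87 and RAD54L at 1.30, and 14 members passed (24.7% of all genes called in that fit). NBN, FANCL, RAD51AP1, GEN1, MRE11 and FANCF made up the rest of the 11.

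With R1881 alone the LNCaP-labelled libraries held most of the set at higher levels than C4-2. C4-2 was lower for 27 members and higher for 2 (50.5% of all genes called, 24.3% higher and 26.2% lower), with a median of -1.62 against 0.00 for all genes. EXO1 had the largest difference, with 5.57 and 4.22 CPM in C4-2 and 143 and 159.8 CPM in the LNCaP-labelled cells, or -4.90 ± 0.15 (adjusted p = 7.94e-19). BLM (-4.46), RAD54L (-4.19), BRIP1 (-3.92), FANCB (-3.79), FANCA (-3.67) and RMI2 (-3.61) followed. BRCA1 was at -2.20, CHEK1 at -2.12, FANCD2 at -3.25 and BRCA2 at -1.96. The members higher in C4-2 past the threshold were PIF1, at 2.32 ± 0.22 (adjusted p = 1.71e-09), and FANCF, at 2.17 ± 0.14 (adjusted p = 1.02e-12). Under the adjusted p-value alone 5 members were higher and 33 lower in C4-2 (76.8% of all genes, 37.8% higher and 39.0% lower). ATM, at 0.55, was among the higher ones that passed the adjusted p-value only. By length-corrected level the median member was at 53.4 TPM in the LNCaP-labelled cells with R1881 alone and 58.0 TPM with the combination, against 11.99 TPM in C4-2 with R1881 alone. All 15 S phase markers were also lower in C4-2 (median -2.98), summing to 2674 to 2740 CPM in the LNCaP-labelled cells with R1881 alone, and the part of this in the repair genes' values was not tested.

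**Figure D5:**
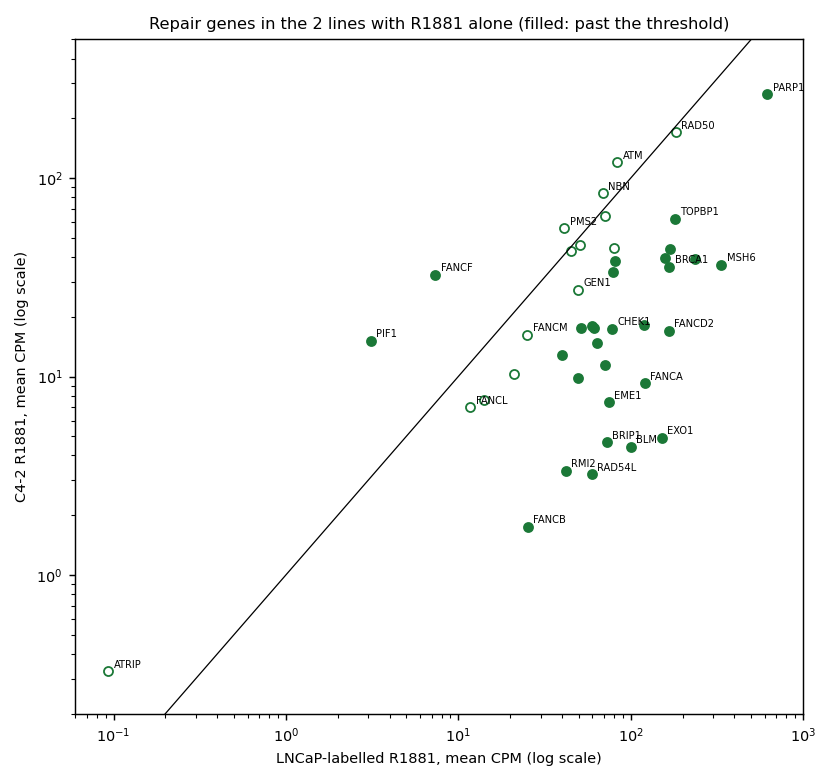
Mean CPM with R1881 alone in LNCaP-labelled cells (horizontal, log axis) and in C4-2 cells (vertical, log axis) for the 43 repair genes, with n = 2 libraries per line, the line of equal level and filled points past the threshold. Labels are given for a part of the genes. Past the threshold, PIF1 and FANCF lay above the line and 27 members lay below it.

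A further 51 genes of the same pathways, among them Fanconi accessory factors, replication protein A and the shieldin complex, were read from the same fits. With namoline 9 of them rose (17.6%, against 5.17% of all genes) and none fell (median 0.27). TCE-5002 raised 4 (median 0.03) and the combination 4 (median 0.28), or 7.84% each against 5.04% and 8.87% of all genes, with no falls past the threshold. CLSPN, the claspin adaptor that lets ATR reach CHEK1, stood at 5.66 and 4.03 CPM with R1881 alone, 48.04 and 56.05 with namoline, 17.1 and 14.2 with TCE-5002 and 15.4 and 10.4 with the combination. It rose by 3.39 ± 0.21 (adjusted p = 5.92e-08), 1.67 ± 0.22 (adjusted p = 5.20e-05) and 1.38 ± 0.22 (adjusted p = 0.000143), and its interaction was -3.68. MCM8, a helicase subunit used in recombination, rose by 1.58 ± 0.15 (adjusted p = 2.40e-06) with namoline. CENPX, a partner of FANCM, rose by 1.45 ± 0.13 (adjusted p = 2.12e-06) with TCE-5002. WEE1, the kinase that restrains entry into mitosis, rose by 1.64 ± 0.15 (adjusted p = 1.00e-06) with the combination, from 19.4 and 19.2 CPM to 58.3 and 63.8 CPM. In the LNCaP-labelled cells 5 rose and 2 fell (median 0.11), a called share of 13.7% against 18.7% of all genes. Their median was 0.15 without combination replicate 1. ABRAXAS1, a subunit that binds BRCA1, rose there by 2.17 ± 0.15 (adjusted p = 1.76e-13), and TIMELESS, a fork protection factor, by 2.12 ± 0.11 (adjusted p = 6.17e-17). SHLD1, of the shieldin complex, fell, at -1.39 ± 0.28 (adjusted p = 8.62e-05), as did the histone gene H2AX, at -1.003 ± 0.12 (adjusted p = 9.99e-09). Without combination replicate 1 ABRAXAS1 was at 2.20, TIMELESS at 2.12, SHLD1 at -1.70 and H2AX at -1.24.

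Reads of overlapping genes could not be told apart by strand. By whole gene span, introns included, 17 of the members overlap another protein-coding gene. Among them are RAD54L (LRRC41), NBN (DECR1), FANCF (GAS2), XRCC3 (KLC1) and MSH6 (FBXO11), whereas EXO1, BRIP1, BRCA2, PARP1 and PIF1 do not overlap one. Counting was over exons, so an overlap of spans need not affect the counts. PMS2, CHEK2 and BRCA1 have near-identical copies of a part of the gene elsewhere in the genome, so their counts are uncertain.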

How the data were processed

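Poly(A) RNA-sequencing libraries (n = 12, 2 per group) were deposited by the authors as raw gene counts, unnormalised, 1 table per library. Per the file headers and labels, reads were trimmed with Trim Galore and cutadapt and aligned to GRCh38 with STAR. They were counted over Ensembl release 83 exons with featureCounts. The header held no strand option, so reads from overlapping genes were not separated by strand. A value of 1 count in 14791602 to 20690819 limits the precision at low levels.

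The 43 members were matched by symbol. The members and all gene lists were chosen with earlier results of these data known. Counts were tested with edgeR 4.0.16 (R 4.3.3) by the quasi-likelihood F test after filterByExpr and TMM scaling, p-values adjusted across every tested gene (Benjamini-Hochberg) and a threshold of adjusted p under 0.05 with a log2 fold change of at least 1 in size. SE is the log2 fold change divided by the square root of F. C4-2 comparisons used all 8 C4-2 libraries, the LNCaP-labelled comparison its 4, and comparisons between lines the 8 libraries with R1881 alone or the combination. CPM were computed with TMM factors over all libraries, and TPM from exon lengths. Fits were tested on simulated data. Alternatives were RLE scaling, no filter, the likelihood ratio test, DESeq2 1.42.0, a replicate block, only the groups compared, a GC correction (lowess span 0.3) and leaving out each library.

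Values in every library were given for the members that ranked in the first 3 rising or falling in a comparison with R1881 alone, at 1 CPM or more, and for BRCA1, BRCA2, ATM, ATR, CHEK1, FANCD2 and PARP1. Other pathway genes were named by the same ranking, the first 2 each way. Promoters were those of the 2 largest rises with namoline and the largest falls with the combination, PIF1 and NBN, where NBN had no listed window. Replicate numbers were checked for pairing by the correlation of replicate differences between groups, which ran from -0.01 to 0.28 among C4-2 groups and was 0.0045 between the LNCaP-labelled groups, so the numbers were not taken as pairs. A marker gene of the neuroendocrine list, and the sum over that list, are not reported here.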

Additional observations from a re-analysis of the deposited data

Results flagged for a closer look

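The response to the combination differed between C4-2 and the LNCaP-labelled cells for 11 members, a share of 25.6% near the 25.3% of all genes called, by the test of the difference itself in the fit of 8 libraries (edgeR, C4-2 change minus LNCaP-labelled change on the log2 scale, adjusted p under 0.05 and at least 2-fold). The difference was negative for the helicase PIF1 (-3.69), the ubiquitin ligase FANCL (-2.29), NBN (-1.67), BRCA1 (-1.54), RAD51AP1 (-1.40), the resolvase GEN1 (-1.33) and MRE11 (-1.19). It was positive for FANCF (1.05), BRCA2 (1.14), RAD54L (1.26) and MSH6 (1.68). Without the LNCaP-labelled combination replicate 1, whose header lacks TCE-5002, the values ran from -3.87 for PIF1 to 1.64 for MSH6, and NBN was at -1.75, FANCL at -2.37, RAD51AP1 at -1.50, GEN1 at -1.42, MRE11 at -1.25 and FANCF at 1.10. Some of these were under 2-fold elsewhere. FANCF was 0.997 without C4-2 R1881 replicate 1, 0.94 without the LNCaP-labelled R1881 replicate 1 and 0.96 without the LNCaP-labelled combination replicate 2. BRCA2 was 0.94 without C4-2 R1881 replicate 2 and 0.92 without C4-2 combination replicate 1, and MRE11 was -0.89 with the GC correction.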

How the results depend on the processing

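The counts of members past the threshold stayed within 1.5 times the main count under RLE scaling, no filter, the likelihood ratio test, DESeq2, the replicate block and only the groups compared, and no sign of a called member turned. The GC correction lowered the LNCaP-labelled count from 5 to 2, and to 2 also with the replicate block. With the replicate block alone the counts were 21 for namoline, 6 for TCE-5002, 7 for the C4-2 combination, 5 for the LNCaP-labelled combination, 23 for the combination against namoline, 4 against TCE-5002, 24 for the interaction, 11 for the line difference and 29 for the R1881 levels. Leaving out 1 library at a time gave 18 to 23 for namoline, 5 to 8 for TCE-5002, 4 to 9 for the C4-2 combination, 3 to 6 for the LNCaP-labelled combination, 20 to 22 for the combination against namoline, 4 to 9 against TCE-5002, 24 to 26 for the interaction, 10 to 15 for the line difference and 28 to 32 for the R1881 levels. The LNCaP-labelled count was 3 without R1881 replicate 2 or combination replicate 2, where XRCC2 (0.98 and 0.89) and XRCC3 (-0.999 and -0.92) were under 2-fold. In such fits a lone library is assumed to vary like the other groups. The ranges show how stable the counts were and are not set against the shares of all genes. Over single genes, 1797 of 1888 values kept their side of the threshold when a library was left out, and 2904 of 2957 under the other settings. The causes were not tested. ATRIP, at 0 to 20 counts per library, was too low to read.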
